A study of Mus musculus with 15 samples.

Results

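Leukemia stem cells (LSC) from peripheral blood (BL) were compared with those from spleen (SPL) of the same mouse leukemia model. The genes described are those with an FPKM of 1 or more in either group, 8989 of the 23359 genes in the table of this comparison. FPKM, fragments counted on a gene relative to its length and to sequencing depth, lets levels of different genes be set side by side. The leukemia, a blast crisis of chronic myeloid leukemia, was produced by joint expression of the human oncogenes BCR-ABL and NUP98-HOXA9. Leukemia cells were transplanted into recipients, and the LSC were taken 12 days later from female mice aged 3 months. Each group had 3 libraries, and the labels do not say whether these came from separate mice. A sort gate for the cells is missing from the labels, as are the strain of the recipients and the promoter driving the oncogenes. The stem cell markers Kit, Ly6a and Cd34 were present in both groups, at an FPKM of 2.26 or more, though 8 of 23 listed stem and progenitor genes were below 1 in both. The mature myeloid markers Itgam, Csf1r and Emr1 were present too, at 5.02 or more. The other groups of the study, used below only to place a level, were LSC of bone marrow (BM) and gonadal adipose tissue (AT), and the normal counterparts of LSC from normal bone marrow (NBM).

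The deposited values are pooled, with 1 value per gene and group, so the spread between the 3 libraries of a group is known only through the authors' own statistics. All levels below are the authors' FPKM. All folds are the log2 of BL over SPL in the authors' deposited table of this comparison, so a positive fold means higher in blood, and ± gives the standard error that their fold and test statistic imply. Genes are called here if they were tested in that table with a q-value under 0.05. A q-value printed there as 0 is given as "listed as 0".

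A chronic myeloid leukemia in blast crisis fills the marrow with immature cells, and blasts then leave the marrow, settle in the spleen and circulate in the blood. Within the myeloid lineage, cycling progenitors make the primary granule enzymes, and cells that leave the cycle and mature along the monocyte path gain receptors for bacterial products, Fc receptors and integrins. Selectins and integrins let a cell in the blood stop on a vessel wall, while chemokine receptors direct it into tissue.

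In blood LSC, genes of cell division, DNA replication and ribosome assembly were lower than in spleen LSC, most of them by several fold. Most kept genes of monocyte maturation, Toll-like receptor sensing, KLF transcription factors, adhesion and lipid uptake were higher. Mpo, myeloperoxidase, was lower in blood, as were 8 of 15 kept stem and progenitor genes, or 5 after centring with 2 higher. HOXA genes, glycolytic enzymes and MHC class I genes included at most 1 called member per list, or up to 5 after centring. Of the 8886 kept genes with a test, 3527 were called, which is 39.7%. In blood, 1019 were higher (11.5%) and 2508 lower (28.2%), and these shares are the background for each count below. Over all 12370 tested genes, kept or not, 33.3% were called, 10.2% higher and 23.1% lower. The level rule bears on these shares, since 775 genes were kept through BL alone and 1340 through SPL alone, and such genes could not be called in the other direction. They made up 371 of the higher and 807 of the lower calls.

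The excess of lower calls depended on how the 2 pooled columns were scaled to each other. The median fold over all tested genes was -0.40 on the log2 scale, and -0.59 over the kept genes. With folds centred on the median of tested genes, 1441 kept genes were higher and 1588 lower. With upper quartile scaling, 1624 were higher and 1344 lower, so the direction of the excess turned. With total count scaling, the counts were 1302 and 1826. A list's larger count is therefore given with the centred one wherever they differ in direction or by more than 1.5 times.

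**Figure D1:**
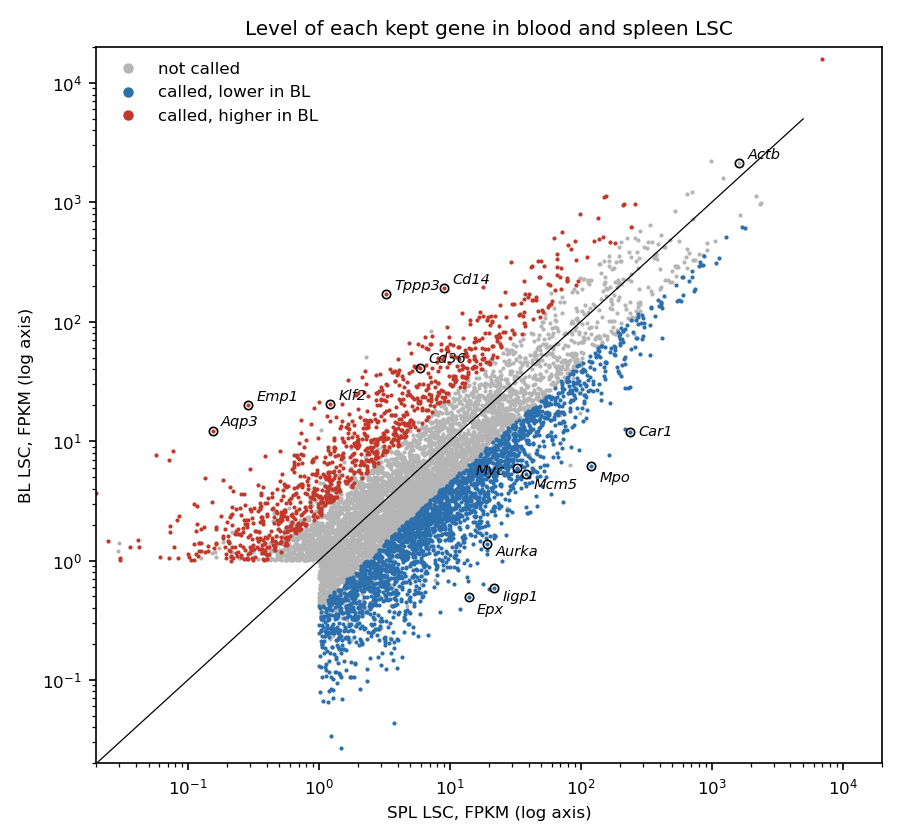
Level of each kept gene in BL LSC (vertical, FPKM, log axis) against SPL LSC (horizontal, FPKM, log axis), 1 point per gene with a test and a level above 0 in both groups (8820 genes), with the diagonal marking equal levels. Red points were called higher in BL (Cd14, 9.01 against 191), blue points lower (Mpo, 120 against 6.23), and grey points were not called. Genes near the corner below an FPKM of 1 in both groups are absent by the rule that chose the genes.

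The promoters of 6 called genes are printed here as examples, each picked by hand as a holder of the letters marked in it. Each is the stretch of 250 bases before the transcription start, 5′ to 3′ in the direction of the gene, from RefSeq on GRCm38.p6. In the promoters of Cdk1, the kinase that starts mitosis, and Top2a, which untangles chromosomes, capitals mark TTTGAA or its reverse complement. This is the core of the cell cycle homology region, an element known from promoters of genes expressed in late cell cycle. In those of Mcm5 and Mcm6, subunits of the helicase that opens DNA for replication, capitals mark TTTCGCGC or TTTGGCGC on either strand, 2 forms of the E2F site. Where these forms overlap, the capitals run together. In those of Emp1, an epithelial membrane protein, and Serpinb2, an inhibitor of plasminogen activators, capitals mark TGANTCA, the AP-1 site. Only the letters named for a gene are marked. TTTGAA also occurs unmarked in Emp1 and Serpinb2, and TTTCGCGC in Cdk1, so the marks do not set these promoters apart.
Cdk1 (chr10:69352913-69353162, minus strand): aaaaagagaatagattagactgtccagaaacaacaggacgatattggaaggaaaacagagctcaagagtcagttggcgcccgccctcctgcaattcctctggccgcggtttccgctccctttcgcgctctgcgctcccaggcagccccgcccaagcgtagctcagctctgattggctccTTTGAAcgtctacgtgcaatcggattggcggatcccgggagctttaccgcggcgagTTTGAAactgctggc
Top2a (chr11:99024190-99024439, minus strand): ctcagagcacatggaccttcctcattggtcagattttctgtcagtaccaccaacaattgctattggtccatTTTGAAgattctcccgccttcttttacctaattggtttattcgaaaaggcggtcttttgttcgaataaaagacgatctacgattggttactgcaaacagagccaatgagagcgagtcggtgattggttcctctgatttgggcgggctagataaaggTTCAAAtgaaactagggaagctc
Mcm5 (chr8:75109259-75109508, plus strand): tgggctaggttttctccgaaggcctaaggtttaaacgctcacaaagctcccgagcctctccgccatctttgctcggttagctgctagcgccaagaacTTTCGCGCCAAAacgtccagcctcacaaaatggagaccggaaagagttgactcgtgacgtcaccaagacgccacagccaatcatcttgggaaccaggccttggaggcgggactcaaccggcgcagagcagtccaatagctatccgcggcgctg
Mcm6 (chr1:128359706-128359955, minus strand): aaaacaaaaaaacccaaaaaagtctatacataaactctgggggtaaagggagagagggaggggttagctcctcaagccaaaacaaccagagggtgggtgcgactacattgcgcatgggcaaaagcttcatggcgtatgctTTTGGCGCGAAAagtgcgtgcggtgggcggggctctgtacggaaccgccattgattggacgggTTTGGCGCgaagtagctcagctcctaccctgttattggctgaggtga
Emp1 (chr6:135362681-135362930, plus strand): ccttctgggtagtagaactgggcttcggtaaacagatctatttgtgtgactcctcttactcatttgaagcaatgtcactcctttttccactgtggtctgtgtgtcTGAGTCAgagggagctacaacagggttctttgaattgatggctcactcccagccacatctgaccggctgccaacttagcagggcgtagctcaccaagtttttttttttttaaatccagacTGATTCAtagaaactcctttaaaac
Serpinb2 (chr1:107511173-107511422, plus strand): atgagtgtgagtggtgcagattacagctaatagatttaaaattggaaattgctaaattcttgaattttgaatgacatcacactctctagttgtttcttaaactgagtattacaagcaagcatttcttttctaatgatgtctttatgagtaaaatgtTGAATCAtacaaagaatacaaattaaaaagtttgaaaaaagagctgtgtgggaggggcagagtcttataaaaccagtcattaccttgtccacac

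The TTTGAA matches of Cdk1 began 71 and 15 bases before the start, and those of Top2a 179 and 23 bases before it. The E2F matches of Mcm5 began 153 and 149 bases before the start, overlapping each other. Emp1 held AP-1 matches 145 and 25 bases before its start, and Serpinb2 held 1 match 94 bases before its own. A RefSeq promoter, from 250 bases before to 50 after the start (300 bases), was matched for 7082 of the 8989 kept genes. TTTGAA on either strand occurred in 15 of 21 mitosis promoters (71.4%) and in 13.8% of all 7082. Over all called genes its shares were close, at 14.3% in promoters of genes higher in blood and 16.3% in those of lower genes. An E2F form occurred in 7 of 19 replication promoters (36.8%) and in 1.89% of all, with 1.36% for higher and 2.89% for lower genes. TGANTCA occurred in 9.67% of the 807 promoters of genes higher in blood, in 3.58% of the 2009 of genes lower there, and in 4.98% of all. The ETS letters GAGGAAGT, on either strand, occurred in 6.82% of the promoters of higher genes, 3.04% of those of lower genes and 3.80% of all. Others had the reverse order. The CRE letters TGACGTCA occurred in 1.24%, 3.14% and 3.18% in that order, and the E-box letters CACGTG in 7.56%, 11.6% and 10.2%. Promoters of genes higher in blood also held fewer CG pairs, with a median of 13 against 20 in promoters of lower genes, so the letters at hand differ between these sets. These are counts of letters, with no test, and a match is not a bound site.

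Cell division genes were lower in blood throughout the list. Of 24 mitosis and chromosome segregation genes, all kept, 22 were called lower in BL and none higher, with a median fold of -3.14, or -2.74 after centring. Aurka, the kinase of the spindle poles (chr2:172356196-172370506, mm10), was at an FPKM of 19.4 in SPL and 1.38 in BL, a deposited fold of -3.82 ± 0.453 in the authors' table (q listed as 0). Plk1, a kinase needed from mitotic entry to cytokinesis, was at 21.9 and 1.64. Ccnb1, the cyclin partner of Cdk1, was at 51.0 and 4.23, and Cdk1 itself at 17.1 and 1.45. For Aurka, Plk1, Ccnb1 and Cdk1 the fold lay between -3.82 and -3.56 in the authors' deposited table. Top2a was at 38.5 in SPL and 4.21 in BL. Mki67, the proliferation marker Ki-67, was at 17.1 and 2.90, a fold of -2.56 ± 0.466 with q = 1.54e-06 in that table. The members not called were Ccna2 (2.68 and 0.322, q = 0.0704) and Cdc20 (5.15 and 0.738, q = 0.368), whose standard errors of 1.28 and 2.01 were far above the median of 0.479 over kept genes.

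Replication genes followed the same order of levels. Of 24 kept genes of DNA replication and nucleotide synthesis, 23 were called lower in blood and none higher, with a median fold of -2.64. Cdc6, which loads the helicase onto origins, was at 9.52 in SPL and 0.879 in BL (fold -3.44 ± 0.458, q = 9.02e-12 in the authors' deposited table). Mcm5 was at 38.0 and 5.31, and Mcm6, among the smaller changes of the list, at 4.74 and 1.89. Rrm1, the large subunit of ribonucleotide reductase, was at 46.7 and 5.53, and Tyms, which makes thymidylate, at 13 and 1.53. Rfc4, a clamp loader subunit, was not called at 27.6 and 2.74, with a standard error of 2.00. Among the E2F factors, which switch such genes on or off, E2f8, a repressor, was at 13.8 in SPL and 0.674 in BL, a fold of -4.35 ± 0.482. Their partner Tfdp1 was lower too, at 19.7 and 3.79, whereas E2f2 was higher in blood, at 1.15 and 3.81 (q = 0.00251 in the authors' deposited table). Of 13 chromatin genes kept, 5 were lower and 2 higher. The lower ones included Uhrf1 (19.3 and 3.16) and Dnmt1 (16.9 and 3.75), which copy DNA methylation after replication, and Ezh2 (5.25 and 1.07), the Polycomb methyltransferase. The higher ones were Tet2 and Kdm6b, which remove methyl marks from DNA and from histone H3, and both were kept through BL alone.

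Among genes that restrain division, 3 of 11 kept were called higher in blood and none lower, or 5 higher after centring. Btg1, an antiproliferative factor, was at 4.98 in SPL and 24.5 in BL, a deposited fold of 2.29 ± 0.485 in the authors' table (q = 4.82e-05). Cdkn1a, the inhibitor p21, was at 13.3 and 33.5, and Cdkn1b, the inhibitor p27, at 1.4 and 4.56. Myc, a driver of growth and ribosome production (chr15:61985341-61990361), was at 32.7 in SPL and 5.90 in BL, a fold of -2.47 ± 0.492 (q = 1.42e-05). Mxd1, which competes with MYC for their shared partner MAX, went the other way, from 1.86 in SPL to 11.7 in BL (fold 2.66 ± 0.480, q = 1.15e-06 in that table).

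Genes of ribosome assembly were lower in blood, and those of the ribosome itself less so. Of 21 kept ribosome biogenesis genes, 20 were called lower and none higher, with a median fold of -2.41, and Npm1 had no test. Wdr12, which processes the large subunit's RNA, was at 21.6 in SPL and 2.61 in BL, and Polr1b, a subunit of RNA polymerase I, at 10.3 and 1.30. Nolc1, a nucleolar chaperone, was at 27.8 and 3.70, and Nop2, an rRNA methyltransferase, at 32.6 and 5.07. Their folds in the authors' deposited table ran from -3.05 for Wdr12 to -2.69 for Nop2. Of 28 cytosolic ribosomal protein genes, 19 were called lower and none higher, with a median of -1.33. That count rested on the scaling, since 2 were lower and 1 higher after centring, and none was lower under upper quartile scaling. Rps18, for example, was at 1139 in SPL and 344 in BL, with q = 0.0045 in the authors' deposited table. Of 21 mitochondrial ribosomal protein genes, 13 were lower, and 10 after centring, such as Mrps27 (20.0 and 3.29).

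Heat shock and chaperonin genes were mostly lower, while the counts for the proteasome and respiratory chain rested on the scaling. Of 19 kept heat shock and chaperonin genes, 13 were lower and none higher, and 9 after centring. Hspd1 and Hspe1, which together fold proteins in mitochondria, were at 168 and 104 in SPL and at 20.9 and 14.7 in BL, folds of -3.01 ± 0.471 and -2.83 ± 0.444 in the authors' deposited table. Hsp90aa1, the inducible form of HSP90, was at 218 and 44.5. Of 22 proteasome subunits, 11 were lower, but 2 after centring and none under upper quartile scaling. Of 24 oxidative phosphorylation genes, 9 were lower, but 3 after centring and 1 under upper quartile scaling, with Atp5g1 of the ATP synthase ring at 123 and 26.2. Of 16 genes of the integrated stress response, 7 were lower and 1 higher. The 4 with the smallest q serve amino acid and one-carbon supply. Asns, which makes asparagine, was at 40.1 in SPL and 4.46 in BL (fold -3.17 ± 0.448, q = 1.71e-10 in the authors' deposited table). Phgdh and Psat1, which start serine synthesis, were at 67.5 and 65.9 in SPL and at 7.43 and 7.93 in BL. Shmt2, which passes serine carbon to folate in mitochondria, was at 43.5 and 5.83. Atf4, the factor after which the response is named, was not called.

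**Figure D2:**
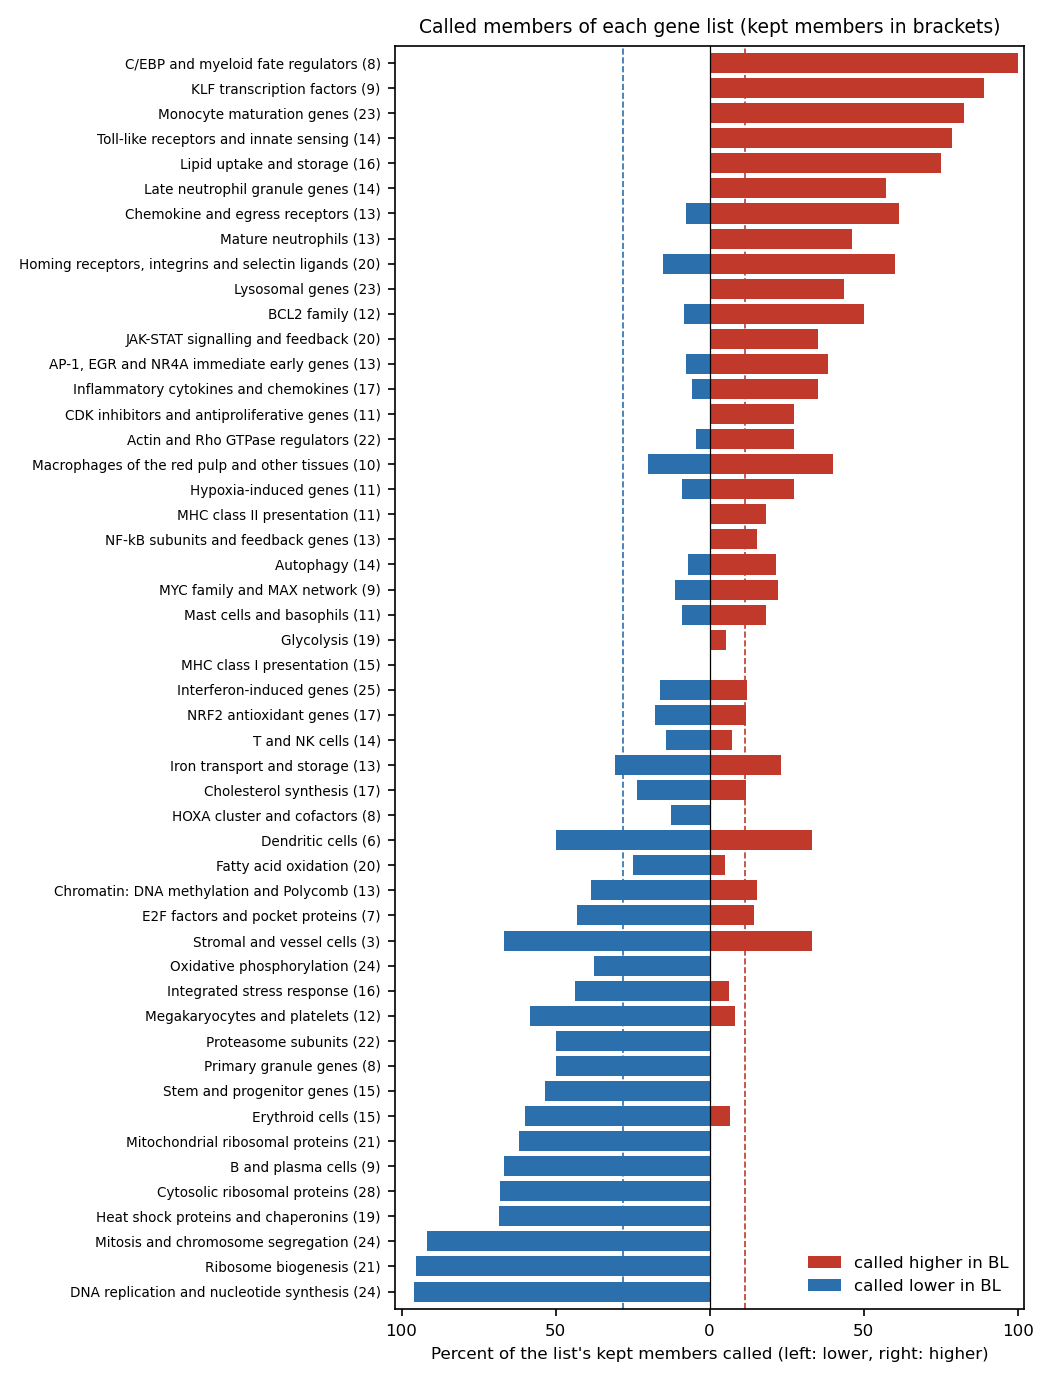
Percent of the kept members of each of 50 gene lists called higher in BL (red, to the right) or lower (blue, to the left), with the number of kept members in brackets. The dashed lines mark the share among all kept genes with a test, 11.5% higher and 28.2% lower. Replication, ribosome biogenesis and mitosis genes lie at the lower end, and C/EBP-related, KLF and monocyte maturation genes at the upper end.

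Monocyte maturation genes formed the largest group of higher genes among the lists. Of 23 kept, 19 were called higher in blood and none lower, with a median fold of 2.86, and 4 of the 19 were kept through BL alone. Cd14, the co-receptor for lipopolysaccharide (chr18:36725067-36726654), was at 9.01 in SPL and 191 in BL, a fold of 4.40 ± 0.546 (q = 1.53e-13 in the authors' deposited table). Fcgr4, an Fc receptor of non-classical monocytes, was at 6.48 and 74.3. Emr1, the F4/80 antigen, was at 16.9 and 122, and Csf1r, the receptor for macrophage colony-stimulating factor, at 5.02 and 54.2. Lyz1 and Lyz2, the lysozymes, were at 155 and 151 in SPL and at 1130 and 1105 in BL, but their sequences are near-identical, so reads may be split between them. Ctss, a lysosomal protease of antigen-presenting cells, was at 42.4 and 293. Treml4 and Ace, both known from patrolling monocytes, were at 4.04 and 0.270 in SPL and at 48.7 and 3.64 in BL. Cx3cr1, their fractalkine receptor, was at 8.65 and 20.3 without being called (q = 0.0697). Ly6c1 and Ly6c2, marks of classical monocytes that share sequence, were not called, at 141 and 139 in SPL and 306 and 303 in BL. Under centring and under upper quartile scaling, 22 of the 23 were called higher, with Cx3cr1, Ly6c1 and Ly6c2 among them.

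Sensors of microbial products were higher with them, though Cd14 is counted in both lists. Other called monocyte genes are also counted below. Nr4a1 is in the C/EBP and immediate early lists, Itgax in the homing list and Ccr2 in the chemokine receptor list. Ctss is in the lysosomal list and Csf1 in the cytokine list. Of 14 kept Toll-like receptor and sensing genes, 11 were higher and none lower, and 5 of the 11 were kept through BL alone. Trem1, which amplifies responses to bacteria, was at 2.24 in SPL and 39.0 in BL, a fold of 4.12 ± 0.548 (q = 8e-12 in the authors' deposited table). Tlr13, a receptor for bacterial ribosomal RNA, was at 3.01 and 22.7, and Tlr7, a receptor for single-stranded RNA, at 0.581 and 4.22. Tlr2 and Tlr4, receptors for bacterial wall products, were at 5.65 and 0.564 in SPL and at 22.9 and 3.03 in BL. The adaptor Myd88 and the Tlr4 partner Ly96 were not called.

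Transcription factors of myeloid maturation were higher in blood. Of 9 kept KLF genes, 8 were called higher and none lower, and after centring all 9 were. Of these, 2 were kept through BL alone. Klf2, which in lymphocytes maintains quiescence and egress (chr8:72319062-72321654), was at 1.22 in SPL and 20.3 in BL, a fold of 4.06 ± 0.553 (q = 2.65e-11 in the authors' deposited table). Klf4, a factor of monocyte differentiation, was at 0.644 and 6.26, and Klf6 was at 19.6 and 110. In the list of C/EBP and myeloid fate regulators, 8 of 16 genes were below an FPKM of 1 in both groups. The 8 kept were called higher, 3 of them kept through BL alone. Irf5, which drives inflammatory cytokines in macrophages, was at 4.06 and 29.5, and Id2, an inhibitor of helix-loop-helix factors, at 37.2 and 219. Nr4a1, needed for patrolling monocytes, was at 7.31 and 75.5 (fold 3.37 ± 0.561, q = 9.8e-08 in that table). Cebpb and Sfpi1, the gene of PU.1, were called higher at low levels, 0.356 and 0.297 in SPL against 2.12 and 1.63 in BL. Cebpa, Cebpe and Irf8 stayed below an FPKM of 1 in both groups. Among 13 immediate early genes, 5 were higher, with Dusp1, a MAP kinase phosphatase, at 2.76 and 19.9 and Atf3 at 3.16 and 15.2. Egr1 was lower, at 4.13 and 1.36 (q = 0.0162), and was not called after centring. Fos was at 37.5 and 97.6 and was not called (q = 0.0565).

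Adhesion molecules used by circulating cells were mostly higher in blood. Of 20 kept homing receptors, integrins and selectin ligands, 12 were higher and 3 lower. Itgb2 and Itgam, the chains of the integrin Mac-1, were at 41.8 and 5.70 in SPL and at 289 and 42.0 in BL, folds of 2.79 ± 0.484 and 2.88 ± 0.591 in the authors' deposited table. Selplg, the ligand of P-selectin, was at 45.7 and 163. Cd44, the hyaluronan receptor (chr2:102811142-102901665), was at 11.1 and 50.6, and Itga5, a fibronectin receptor chain, at 1.5 and 7.31. The lower ones were Icam2 (40.7 and 7.19), Itga6 (1.93 and 0.521) and Itgb3 (6.25 and 2.21), the last 2 integrin chains of progenitors and megakaryocytes. Itga4, a chain of the VCAM-1 receptor, was at 3.80 and 4.85 and was not called (q = 0.705).

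The receptors best known for holding cells in marrow or releasing them into blood were not called. Cxcr4, the receptor for the marrow chemokine CXCL12, was at 2.93 in SPL and 1.99 in BL (fold -0.56 ± 0.524, q = 0.531 in the authors' deposited table). S1pr1, the receptor that guides lymphocytes out of tissues, was at 3.04 and 1.78 (q = 0.264). With errors of this size a difference of about 1 on the log2 scale would not have been called, since the smallest called fold was 1.11. Of 13 kept chemokine and egress receptors, 8 were higher and 1 lower. C5ar1, the receptor for complement C5a, was at 14.3 and 96.1, and Ltb4r1, for leukotriene B4, at 0.136 and 4.93. Ccr2, a chemokine receptor of monocytes, was at 12.4 and 43.2. Ccr7, which leads cells to lymph nodes, was the lower one, at 3.71 and 0.807. Of 22 actin regulators, 6 were higher and 1 lower, with Ezr, which links membrane and actin, at 22.1 and 111 and Lsp1 at 26.2 and 178, while Actb was at 1617 and 2147 and was not called (q = 0.675).

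**Figure D3:**
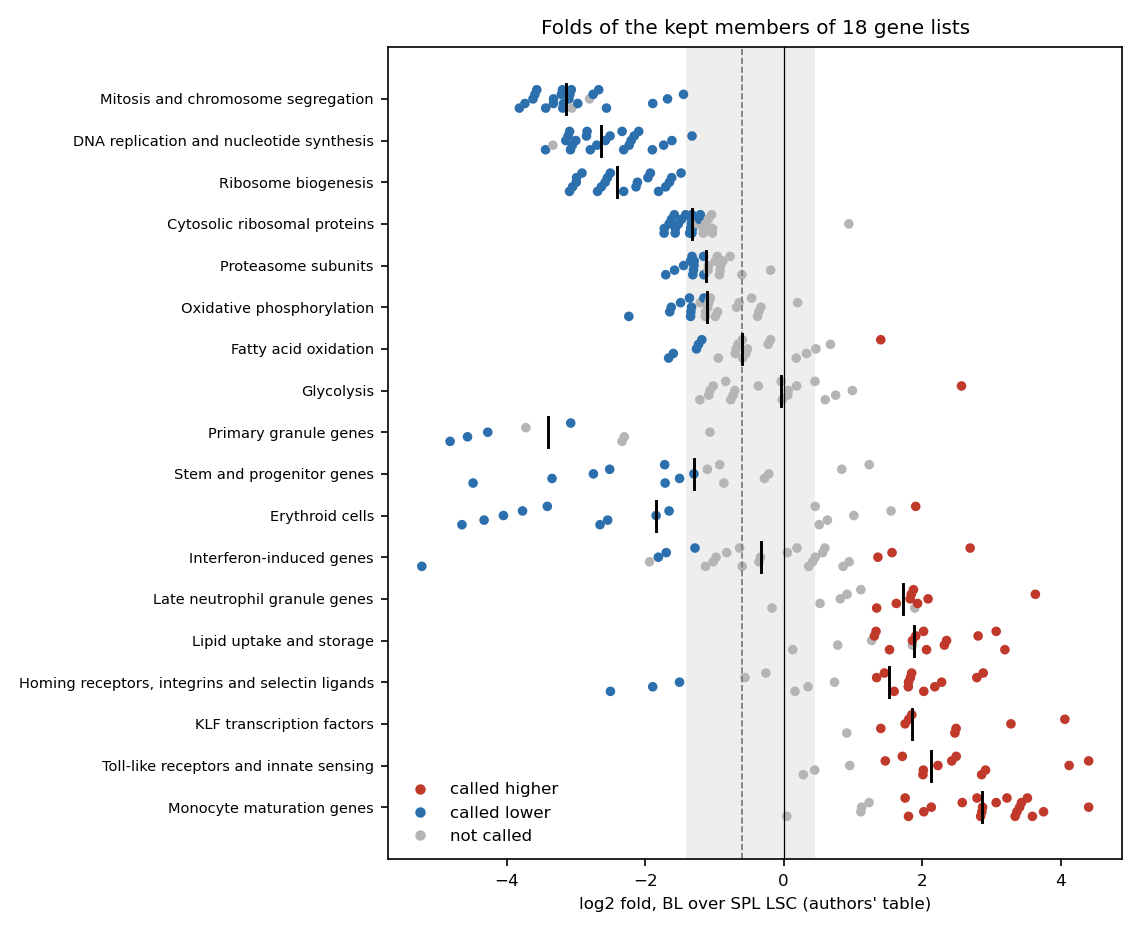
Fold of each kept member with a fold (log2, BL over SPL, from the authors' table) in 18 gene lists, 1 point per gene, red where called higher, blue where called lower and grey where not called. Black ticks are list medians, the dashed line is the median over kept genes with a test (-0.59) and the grey band runs from the lower quartile (-1.4) to the upper (0.44). Mitosis genes sit at a median of -3.14 and monocyte maturation genes at 2.86, while glycolysis genes spread around -0.04.

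Of 8 kept genes of the primary granule list, 4 were called lower in blood and none higher, with a median of -3.40. The 4 were Mpo, the eosinophil genes Prg2 and Epx, and Ms4a3. Mpo, myeloperoxidase (chr11:87793784-87804412), was at 120 in SPL and 6.23 in BL, a fold of -4.27 ± 0.520 (q = 5.49e-14 in the authors' deposited table). Prg2 and Epx, the basic protein and the peroxidase of eosinophil granules, were at 72.9 and 13.9 in SPL and at 3.08 and 0.493 in BL. Ms4a3, a marker of granulocyte-monocyte progenitors, was at 61.5 and 7.30. Elane, neutrophil elastase, was at 82.6 and 6.25 but was not called, with a standard error of 3.20. The other serine proteases of these granules, Prtn3 (q = 0.768), Ctsg (q = 0.0964) and Prss57 (q = 0.894), were not called either. Of 14 late granule genes, 8 were higher and none lower. Mmp8, neutrophil collagenase, was at 2.94 and 36.5 (fold 3.64 ± 0.513, q = 1.54e-10), and Lcn2, lipocalin 2, at 24.1 and 74.4. S100a8 and S100a9, the most abundant alarmins of neutrophils, were not called, at 272 and 114 in SPL and 480 and 215 in BL (q = 0.461 and 0.387 in the authors' deposited table).

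Stem and progenitor genes did not move as a block. Of 23 listed, 8 were below an FPKM of 1 in both groups. Of the 15 kept, 8 were lower and none higher, and after centring 5 were lower and 2 higher. Of the 8 lower ones, 5 were kept through SPL alone and could not have been called higher. Slamf1, the stem cell marker CD150 (chr1:171767132-171801184), was at 8.35 in SPL and 0.373 in BL, a fold of -4.48 ± 0.484 (q listed as 0 in the authors' deposited table). Myb, a factor that sustains progenitor growth, was at 2.59 and 0.255, Tal1 at 1.27 and 0.189, and Lmo2 at 5.62 and 0.985. Meis1, a partner of HOXA9 in leukemia, was at 14.2 and 5.01 (q = 0.0299), and was not called under any of the 3 other scalings. Kit, the stem cell factor receptor, was at 4.10 and 2.26, Cd34 at 9.60 and 7.92, and Ly6a, the stem cell antigen Sca-1, at 97.9 and 231. None of these 3 surface markers was called, with q = 0.202, 0.791 and 0.0521 in that order. Ly6a, however, was called higher in blood under each of the 3 other scalings. Flt3 stayed below 1 in both groups. Of 8 kept HOXA cluster genes and cofactors, 1 was called lower in blood and none higher. Hoxa9, the mouse gene whose human counterpart is part of the fusion, was at 2.03 and 2.78 (q = 0.620).

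**Figure D4:**
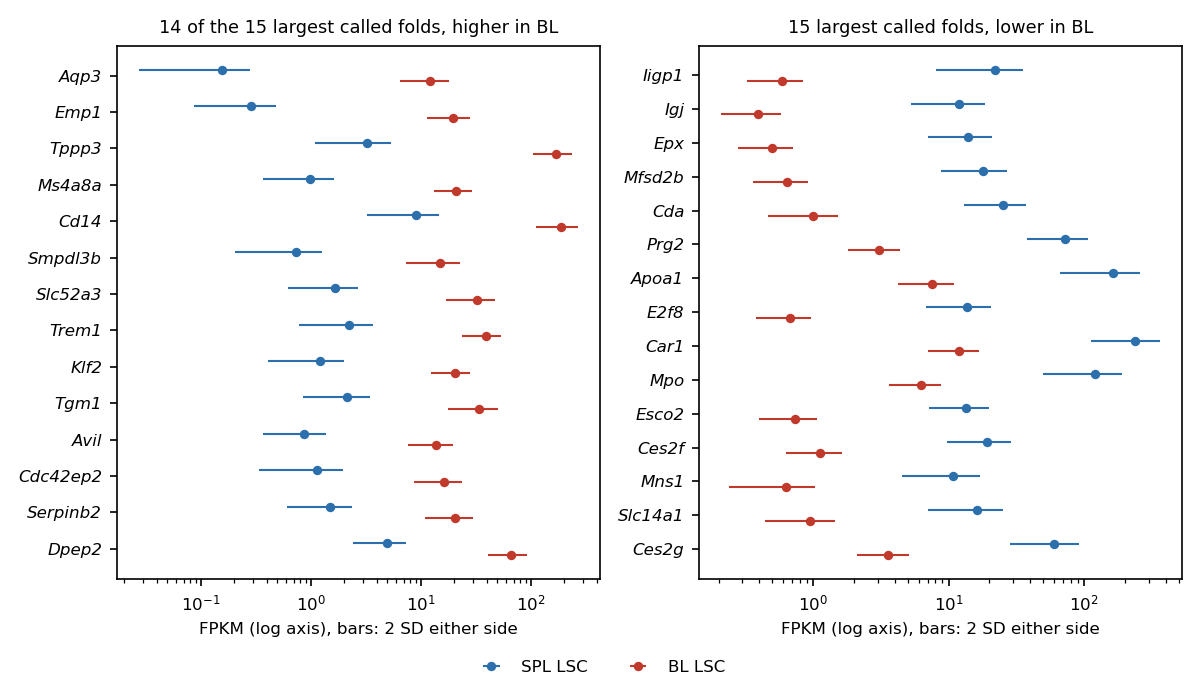
Levels in SPL (blue) and BL (red) of 14 of the 15 genes with the largest positive fold and of the 15 with the largest negative fold among called genes with an FPKM of 10 or more in the higher group, FPKM on a log axis. Bars span the deposited bounds, 2 SD on either side of the pooled value. In each of the 29 genes the bounds of the groups do not overlap, a feature that follows from choosing the largest called folds.

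The largest folds upward lay in genes of varied roles. Aqp3, a channel for water and glycerol (chr4:41092724-41098183), was at 0.155 in SPL and 12.3 in BL, a fold of 6.30 ± 0.685. Emp1 (chr6:135362931-135383173) was at 0.287 and 19.9, and Tppp3, a tubulin-binding protein (chr8:105467492-105471422), at 3.26 and 172. The authors' deposited table listed q as 0 for Aqp3, Emp1 and Tppp3. Slc52a3, a riboflavin transporter, was at 1.66 and 32.4. Tgm1, a transglutaminase, was at 2.15 and 34.3, Serpinb2 at 1.5 and 20.4, and Dpep2, a dipeptidase that acts on leukotriene D4, at 4.91 and 66.5. Avil, an actin-binding protein, was at 0.877 and 13.8, and Cdc42ep2, an effector of the GTPase CDC42, at 1.15 and 16.2. Ms4a8a and Smpdl3b were at 0.997 and 0.733 in SPL and at 21.1 and 15 in BL.

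The largest folds downward included erythroid, eosinophil and plasma cell genes. Iigp1, an interferon-induced GTPase (chr18:60376029-60392629), was at 21.9 in SPL and 0.585 in BL, a deposited fold of -5.22 ± 0.558 in the authors' table. Igj, the joining chain of antibodies, was at 11.9 and 0.392. Car1, the carbonic anhydrase of red cell precursors (chr3:14766214-14808365), was at 239 and 11.9, and Slc14a1, the urea transporter of the Kidd blood group, at 16.2 and 0.946. Apoa1, the apolipoprotein of high density lipoprotein, was at 164 and 7.58, Mfsd2b, which exports sphingosine 1-phosphate from red cells and platelets, at 17.8 and 0.640, and Cda, cytidine deaminase, at 25.2 and 0.988. Esco2, which joins sister chromatids in S phase, was at 13.5 and 0.729. Ces2f and Ces2g, carboxylesterases, were at 19.3 and 59.8 in SPL and at 1.12 and 3.59 in BL. The Ces2 genes are a family of like sequences, so their counts may share reads.

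Among the lipid lists, the counts for uptake and storage lay furthest from the shares over all kept genes. Of 16 kept genes of lipid uptake and storage, 12 were higher in blood and none lower, with a median of 1.88, and 3 of the 12 were kept through BL alone. Cd36, the fatty acid translocase (chr5:17781690-17888959), was at 5.90 in SPL and 41.3 in BL, a fold of 2.81 ± 0.479 (q = 2.21e-07 in the authors' deposited table). Fabp4, a fatty acid carrier of adipocytes and macrophages, was at 3.78 and 31.8, Lpl, lipoprotein lipase, at 2.24 and 11.2, and Dgat2, which makes triglyceride, at 0.219 and 2.00. Plin2, which coats lipid droplets, was at 40.6 and 170. Of 20 kept fatty acid oxidation genes, 5 were lower (25%) and 1 higher (5%), against 28.2% and 11.5% of all kept genes with a test. No member was lower under centring or upper quartile scaling, where 1 and 2 were higher. Cpt1a, which admits fatty acids to mitochondria, was not called at 9.10 and 14.5 (q = 0.30). In glycolysis, 1 of 19 was called (2 after centring, 3 under upper quartile scaling), the lactate exporter Slc16a3, higher in blood at 2.18 and 12.9. Of 17 cholesterol synthesis genes, 4 were lower (23.5%), such as Idi1 at 22.2 and 4.78, and 2 higher (11.8%), Cyp51 (5.94 and 20.9) and Mvd. These shares were near those of all kept genes.

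Lysosomal genes were higher in part, and iron genes went in both directions. Of 23 kept lysosomal genes, 10 were higher and none lower, among them Ctsh, a cathepsin, at 6.22 in SPL and 30.1 in BL and Lipa, which hydrolyses lipoprotein lipids, at 18.5 and 58.6. In the iron list, 4 of 13 were lower (30.8%) and 3 higher (23.1%), against 28.2% and 11.5% of all kept genes with a test. The lower share was thus near that of all kept genes. Under each of the other scalings 3 were lower and 4 higher. Slc11a1, the metal transporter of phagosomes, was at 2.30 and 30.3 (fold 3.72 ± 0.569), and Fth1, the ferritin heavy chain, at 91.0 and 471. Tfrc, the transferrin receptor, was lower at 9.85 and 1.57, and Steap3, a ferrireductase of erythroid cells, at 13.4 and 2.52, all 4 called in the authors' deposited table. Of 17 genes of the NRF2 antioxidant list, 3 were lower (17.6%) and 2 higher (11.8%), shares that were below and near those of all kept genes. Lower and higher calls were 1 and 2 after centring or total count scaling, and none and 2 under upper quartile scaling. Hmox1, heme oxygenase 1, was higher at 15.8 and 69.0. In the autophagy list, 3 of 14 were higher and 1 lower, or 7 higher and none lower after centring, with the cargo receptor Sqstm1 at 4.89 and 25. In the hypoxia list, 3 of 11 were higher and 1 lower, though the lower calls were in excess by 1 at an FPKM of 5 or more, with Hif1a at 0.860 and 3.08. All 3 higher ones were kept through BL alone, so they could not have been called lower.

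Cytokines differed gene by gene. Of 17 kept, 6 were higher in blood and 1 lower. Osm, oncostatin M, was at 12.4 in SPL and 118 in BL, a fold of 3.25 ± 0.517 (q = 2.22e-08 in the authors' deposited table). Ccl6 and Ccl3, chemokines of myeloid cells, were at 135 and 37.2 in SPL and at 743 and 172 in BL. Il1b was at 4.92 and 7.88, Tnf at 1.68 and 1.00, and Csf2, the gene of GM-CSF, at 2.52 and 2.77, none of them called (q = 0.438, 0.482 and 0.923). Cxcl10, induced by interferon γ, was lower at 3.88 and 0.568. In the NF-kB list, 2 of 13 were called, both higher, Traf1 (3.80 and 12.6) and Tnfaip3 (1.69 and 4.76), against 7 higher after centring. Of 20 JAK-STAT genes, 7 were higher and none lower, or 11 higher after centring, with Socs3, the feedback inhibitor, at 0.187 and 1.56 and Il6ra, the receptor of interleukin 6, at 0.121 and 1.4. Of these 7, 4 were kept through BL alone, Socs3 and Il6ra among them. Of 12 BCL2 family genes, 6 were higher and 1 lower. Mcl1, which protects myeloid cells from death, was at 4.11 and 15.3, the death-promoting Pmaip1 at 13.2 and 52.1, and Bid was lower at 19.3 and 7.70. The other 4 higher members were Bcl2a1a, Bcl2a1b, Bcl2a1c and Bcl2a1d, near-identical copies at 19.1 to 24.1 in SPL and 103 to 138 in BL, which cannot be counted as separate genes.

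Most kept genes of interferon response and antigen presentation were not called. Of 25 kept interferon-induced genes, 4 were lower (16%) and 3 higher (12%), against 28.2% and 11.5% of all kept genes with a test. The higher share was thus near that of all kept genes, and the lower share below it. Lower and higher calls were 3 and 3 after centring, and 2 and 4 under upper quartile scaling. Beside Iigp1, Igtp, another GTPase of the family, was lower at 31.6 and 9.77, and Bst2, tetherin, at 32.0 and 9.14. Ifitm6 was higher at 16.1 and 104 (fold 2.69 ± 0.479, q = 7.41e-07 in the authors' deposited table). Of 15 kept MHC class I genes none was called, 1 without a test, and 5 were higher after centring. H2-D1 was at 246 and 619 (q = 0.0596). Of 11 MHC class II genes, the 2 called were the co-stimulators Cd80 (0.508 and 4.66) and Cd86 (1.4 and 3.94), both higher.

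Marker lists of other blood and tissue cells were read for all their members, since the labels give no gate. In pooled cells, fewer cells of a type and less RNA per cell cannot be told apart. Of 21 erythroid symbols, 15 were kept, of which 9 were lower in blood and 1 higher. Rhag and Ermap, blood group proteins, were at 22 and 3.68 in SPL and 1.61 and 0.147 in BL, and the summed level of the list was 1690 and 2270. The higher sum in blood lay in hemoglobin entries, with Hba-a1 higher at 260 and 976 (q = 0.00653 in the authors' deposited table, an entry that merges genes) and Beta-s at 328 and 468 (q = 0.545). Of 12 kept megakaryocyte genes, 7 were lower and 1 higher (4 lower after centring), at a sum of 121 and 63.7. Pf4, platelet factor 4, was at 61.1 and 9.52, while Tubb1, the tubulin of platelets, was higher at 4.71 and 17.0. B and plasma cell genes were lower in 6 of 9 kept (4 after centring), at a sum of 47.0 and 16.9, with Pax5 near 0 in both groups (0.0197 and 0.0479). All 6 were kept through SPL alone, so they could not have been called higher. T and NK cell genes were lower in 2 and higher in 1 of 14 (1 each after centring), at a sum of 569 and 326, with Cd3e at 1.98 and 0.624. Mature neutrophil genes were higher in 6 of 13 and lower in none, at a sum of 444 and 965. Of the 6, Cxcr2, Csf3r, Retnlg and Mmp8 were also counted in the late granule list and Trem1 among the sensors. Only Il1r2 was not counted above. Mast cell and basophil genes were higher in 2 and lower in 1 of 11 (5 and 1 after centring), at a sum of 883 and 1350. Tissue macrophage genes were higher in 4 and lower in 2 of 10, at a sum of 62.5 and 199. Cd68 was higher, at 21.2 and 101, and Vcam1, known from red pulp macrophages, lower, at 3.74 and 0.0439, with Siglec1 near 0 in both (0.00894 and 0.0381). Dendritic cell genes were lower in 3 and higher in 2 of 6, and stromal and vessel genes lower in 2 and higher in 1 of 3, with Cdh5 and Col1a1 near 0 in both groups. The lower T and NK cell, tissue macrophage and stromal genes were all kept through SPL alone. So were 4 of the lower erythroid, 4 of the lower megakaryocyte and 2 of the lower dendritic cell genes. The part of such cells in the results on myeloid, erythroid and lymphoid genes was not tested.

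The same genes were placed in the other groups, which are not among the 2 groups compared. Their tests still bear on the calls, since the q-values were adjusted over all 10 comparisons together. The kept genes called higher in blood had a median FPKM of 1.84 in SPL and 8.12 in BL, and of 2.67 in NBM, 2.29 in BM and 5.42 in AT. Those called lower had 8.08 in SPL and 2.01 in BL, and 5.34 in NBM, 5.98 in BM and 2.47 in AT. By these medians, SPL lay on the side of the marrow groups and BL on the side of AT. Single lists could differ. The summed FPKM of the immediate early list was lowest in SPL, at 123. It was 404 in NBM, 310 in BM, 367 in BL and 454 in AT. The list of CDK inhibitors and antiproliferative genes was also lowest in SPL, at 78.1, against 139, 94.3, 144 and 154 in that order. The authors' deposited table of AT against BM LSC, which shares no library with that of BL against SPL, gave a direction for each gene. Of all kept genes with a test there, 6.33% were higher in AT and 19.0% lower. Of the 1014 genes higher in blood with a test there, 439 were higher in AT (43.3%) and 3 lower (0.296%). Of the 2492 lower in blood, 1231 were lower in AT (49.4%) and 3 higher (0.12%). Of the kept genes not called between blood and spleen, 2.21% were higher in AT and 8.39% lower. These shares are descriptions without a test, and all groups were analysed together by the authors.

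Single genes show where blood and adipose tissue LSC were alike and where they were not. Aurka was at 17.6 in NBM, 12.3 in BM and 3.38 in AT, so the low level in blood (1.38) had a counterpart in AT. Klf6 and Nr4a1 were at 95.4 and 49.4 in AT, nearer to blood than to spleen. Mpo differed from Aurka in this. It was at 524 in NBM, 107 in BM, 120 in SPL and 113 in AT, but at 6.23 in BL. Prg2, at 36.1 in AT, and Ms4a3, at 40.8, were likewise far above their levels in BL, and none of the 8 kept genes of the primary granule list was called between AT and BM in the authors' deposited table, nor was any of the 24 oxidative phosphorylation genes. Inflammatory genes also differed. Il1b was at 57.9, Tnf at 7.86 and Csf2 at 79.8 in AT, all called higher there than in BM, and none of them was called between blood and spleen. Id2 was at 219 in BL and at 67.1 in AT. Slamf1 was highest in SPL, at 8.35, against 2.15 in BM, 0.880 in NBM, 0.373 in BL and 0.279 in AT. Car1 had the same order for SPL and BM, at 239 and 71.1, with 13.1 in NBM, 11.9 in BL and 8.95 in AT.

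**Figure D5:**
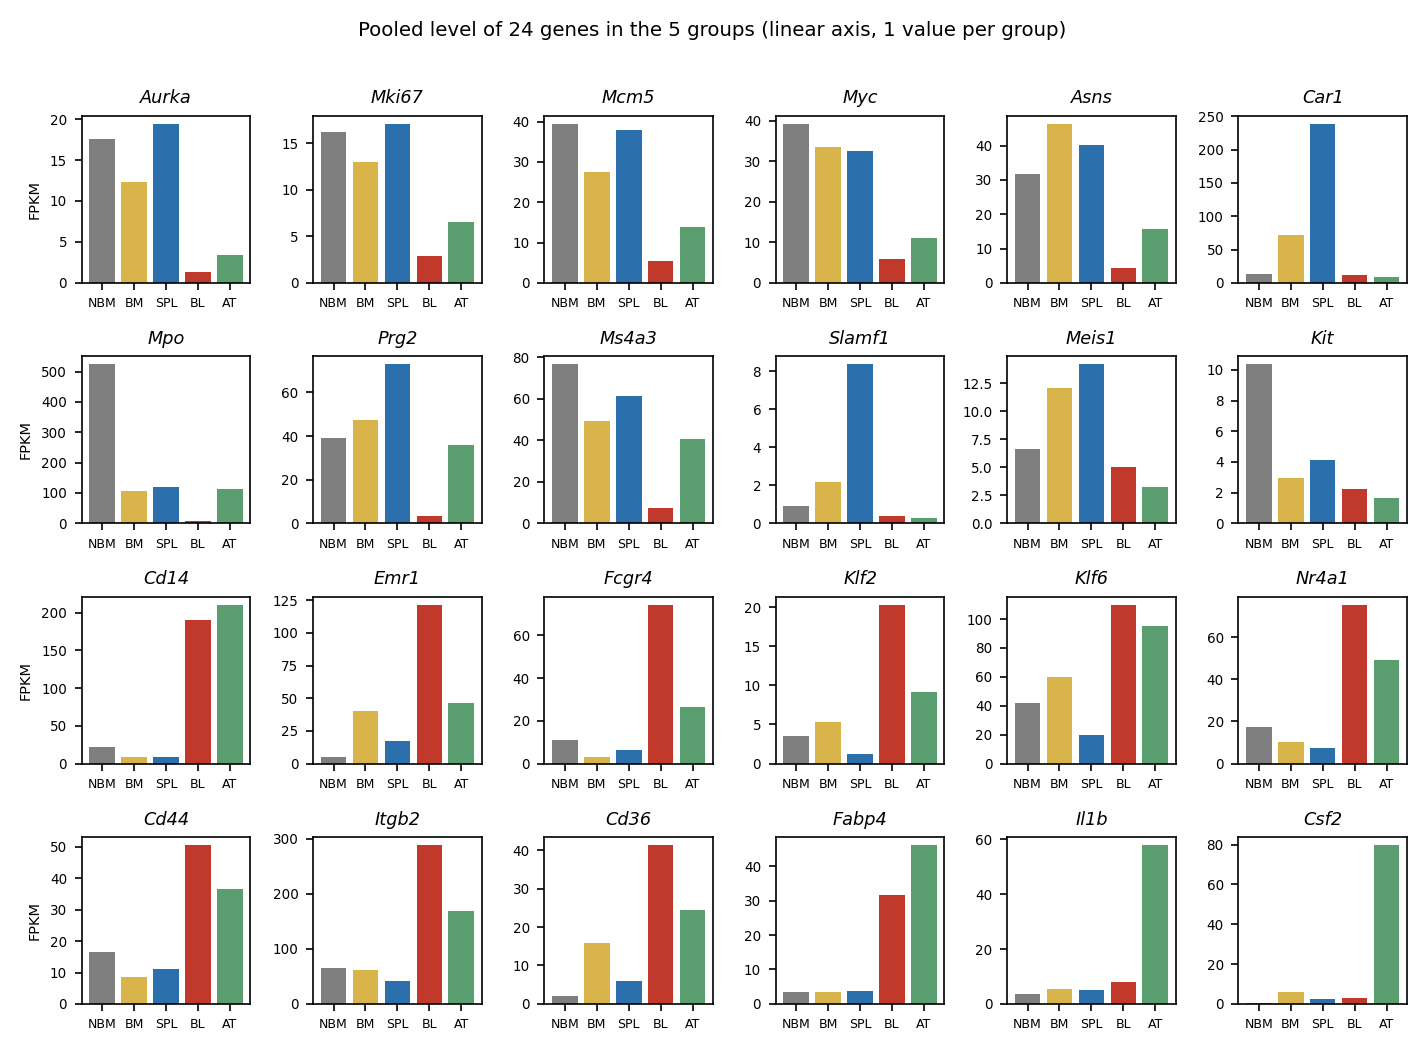
Pooled FPKM (linear axis from 0, 1 value per group, no error shown) of 24 genes in NBM, BM, SPL, BL and AT. The cell cycle genes and Myc are lowest in BL (Mki67, 2.90), Mpo is low in BL alone (6.23 against 107 or more elsewhere), Cd14 is high in BL and AT (191 and 211), and Il1b and Csf2 are high in AT alone.

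The pooled column of SPL held 8.96e+06 estimated counts and that of BL 1.95e+07, with 1.65e+07 to 1.96e+07 in the other groups. The 10 most abundant genes took 12.1% of the counts in SPL and 8.74% in BL. Over the kept genes the standard error of a fold had a median of 0.479 (log2). A further 1142 kept genes had a fold of 1 or more on the log2 scale in either direction without being called, and 103 kept genes had no test. In 72 kept genes 1 group was listed at 0, and no fold is given for them. Genes just inside the level rule (FPKM of 1 to 1.1 in the higher group, 249 genes) were called in 23.5% of tests, and those just outside (0.9 to 1, 236 genes) in 28.5%.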

How the data were processed

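RNA-seq of LSC from blood and spleen was compared over 3 libraries per group, 6 in all. Per the submitters' processing notes, the authors used Trimmomatic 0.32, Cufflinks 2.0.2 and Cuffdiff with the mouse build mm10. Which aligner and annotation they used was not given in the sources used here. Per the file headers, the deposited values are pooled FPKM with bounds, an estimated count per gene and group, a log2 fold and test statistic (scores in the check of units), a p-value and a q-value. The bounds lie 2 SD from the value. The q-value equals what a Benjamini-Hochberg adjustment gives when the 127922 tests of the authors' 10 comparisons are pooled.

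A test of counts per library was planned, but no column holds a library, so the fallback was used: the authors' calls are copied and no test was computed here. The other scalings shift every fold by 0.40, 0.53 and 0.29 (log2, centred, upper quartile, total count) and recompute p and q, tested on simulated data. The p-values may measure technical spread only. Entries that merge genes (33 kept) and entries whose FPKM differs between tables (47 kept) stayed in. Gene starts are printed from 1. Of 944 list symbols in 50 lists, 940 were found, and these were 911 different genes, since some lists share members. Scripts used Python 3.11.15, pandas 2.3.3, numpy 2.4.6, scipy 1.17.1 and matplotlib 3.10.9.

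Genes were named by rule: the 15 largest called folds each way (FPKM of 10 or more, over 3 estimated counts in each group, no predicted, small RNA or merged entries), up to 4 called members per list by smallest q, 21 fixed genes, and the 10 highest levels. Some that the rule picks are not described. Other genes are named with their values already seen, and the lists and members were chosen with earlier results of these data known.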

Additional observations from a re-analysis of the deposited data

How the results depend on the processing

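No paired analysis was possible because the deposited columns are pooled and carry no replicate. For the same reason edgeR, DESeq2 and the fits without each replicate were not run, and no library can be singled out. Spleen had fewer estimated counts than blood, which limits its low genes. Genes higher and lower in blood numbered 1019 and 2508 among kept genes. Centring gave 1588 lower, upper quartile scaling 1624 higher and 1344 lower, and an FPKM of 5 or more 621 higher and 1590 lower. Of called genes 28.9% were higher, against 47.6% (centred), 54.7% (upper quartile, a turn in direction) and 41.6% (total count). The other alternatives (q over this comparison alone, q below 0.01, a fold of 1 or more, no FPKM filter, no merged or differing entries) kept each count within 1.5 times.

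Some lists turned in direction. For higher minus lower calls, the value became 1 for cytosolic ribosomal proteins (upper quartile), 1 and 2 for fatty acid oxidation (centred, upper quartile), 1, 2, 1 and 1 for NRF2 genes (centred, upper quartile, total count, q below 0.01), 1 for iron genes (all 3 scalings), 2 for interferon genes (upper quartile), -1 for mast cell genes (q below 0.01), and -1, 1 and 1 for hypoxia, T and NK cell and stromal genes (FPKM of 5 or more). Median folds turned for HOXA genes (0.27, 0.40, 0.15 under centred, upper quartile and total count, 0.27 at FPKM of 5), MHC class I (0.35, 0.48, 0.24 and 0.14 in that order) and glycolysis (0.36, 0.50, 0.25). They also turned for interferon genes (0.066, 0.20), T and NK cell genes (0.051, 0.18) and iron genes (0.060, 0.19, and 0.47 at FPKM of 5) under the centred and upper quartile scalings, and for cholesterol synthesis (0.12, upper quartile). The last were stromal genes (1.60, FPKM of 5), and MYC network (0.074) and macrophage genes (-0.30) with no filter. The cause was not tested.

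Of the 205 called genes the rule names, 17 lost their call when centred, 25 under upper quartile and 10 under total count scaling, and no named gene changed sign with a call under the scalings or with q over this comparison alone. Meis1, Hspa8, Rpl41, Cd3e and Slc7a11 are among those lost under all 3 scalings.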
